A study of Mus musculus with 4 samples.

Results

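The nonmuscle actin cytoskeleton genes compared here are 38 genes chosen by name, and all 38 were found once each among the 48432 gene rows of the deposited table. They encode the actins of cells other than striated muscle, the proteins that assemble, cap, crosslink and cover their filaments, the nonmuscle myosin II motor, the linkers that tie filaments to membrane and adhesions, and vimentin. The rule that selects them uses gene names alone, but the list of names was chosen with earlier results of these data known. RNA was sequenced from mouse cardiomyocytes, the contractile cells of the heart, released by Langendorff perfusion, in which enzyme is passed through the coronary vessels. There were 2 groups of 2 libraries, MHC and Rbfox2 OE, both on a C57BL x FVB background and both after 3 days on doxycycline in the diet. MHC is the control genotype and Rbfox2 OE overexpresses RBFOX2, an RNA-binding regulator of splicing, which the series title describes as the non-muscle isoform. The labels do not name the promoter of the transgene, the other alleles carried, or the age and sex of the animals.

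Actin monomers (G-actin) polymerise into filaments (F-actin). Thymosins and profilin hold monomers, cofilin severs filaments, and the Arp2/3 complex starts branches on filaments that already exist. In an adult cardiomyocyte most actin is the sarcomeric form, and the nonmuscle forms sit at the cell cortex, at costameres and at intercalated discs. Fibroblasts, endothelial cells and leukocytes of the heart use the nonmuscle forms as their main actin system. Many genes of this system are known targets of serum response factor (SRF), which binds a short element called the CArG box.

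CArG boxes were searched in the RefSeq promoters of the members (GRCm38.p6, 250 bases before to 50 after the start), because the members are often described as SRF targets. The element reads the same way on both strands and was the 1 motif searched. Promoters were found for 37 of the 38 members, all but Actb. A CArG box lay in 6 of these 37 (16.2%), against 488 of 27025 genes with a promoter in the table (1.81%), 140 of 8750 of the genes compared here (1.60%) and 4 of 13 muscle relatives of the members. The stretches around the 6 matches are printed 5′ to 3′ on the gene's strand, with the CArG box in capitals.
Actg1, chr11:120348566-120348595, minus strand: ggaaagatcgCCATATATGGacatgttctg
Myl6, chr10:128493040-128493069, minus strand: gctcttacttCCTTATATGGgcaggaccta
Cnn2, chr10:79988534-79988563, plus strand: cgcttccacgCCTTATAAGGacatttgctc
Myl9, chr2:156775293-156775322, plus strand: caagcagaggCCTAATAAGGccgggctggc
Vcl, chr14:20929161-20929190, plus strand: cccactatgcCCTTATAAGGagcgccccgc
Arpc4, chr6:113377863-113377882, plus strand: CCTAATTTGGtgcccaacct
The Vcl and Cnn2 boxes have the same letters. The box begins 50 bases before the start in Myl6, 56 in Cnn2, 90 in Actg1, 161 in Myl9, 227 in Vcl and 250 in Arpc4, where it lies at the edge of the window. A match describes the letters of this window and shows no binding.

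The values are the authors' FPKM, in which fragments are scaled to transcript length and to the library total. Each group has 1 pooled FPKM per gene, and the range in brackets after a value is its pair of deposited bounds, whose level is not stated. FPKM is per length, so levels can be set side by side between genes. With no value per library there is no replicate spread and no test, and a difference is described by its size and by whether the authors' bounds of the groups are separate. The table gives no number of reads or fragments, so the depth behind a value is unknown. Log2 ratios are of FPKM + 1, Rbfox2 OE over MHC. Fold criteria use these log2 ratios, while a ratio given without log2 is of plain FPKM and is slightly larger for genes that are higher. Rbfox2 itself stood at 14.7 FPKM in MHC and 293 FPKM in Rbfox2 OE, in the direction of the labels. Of 12 cardiomyocyte markers, Myh6 and Mb had no estimate in either group and are listed at 0, and the other 10 lay between 122 and 24688 FPKM in MHC and between 22.4 and 18007 FPKM in Rbfox2 OE.

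Most members were higher in Rbfox2 OE. Since the list was chosen with earlier results of these data known, the shares that follow are a description. A log2 ratio above 0 was found for 34 of the 38, against 46.2% of the 11697 genes compared, those whose mean over the groups reached 1 FPKM. The members' median log2 ratio was 0.92, beside -0.06 over all genes compared. At least 2-fold higher were 16 members (42.1%), against 6.97% of all genes compared, and 0 members were 2-fold lower, against 10%. The bounds were separate with the higher value in Rbfox2 OE for 15 members (39.5%), against 6.67%, and with the lower value for 0 members, against 9.33%. Both criteria were met by 14 members, against 5.27% of all genes in this direction and 7.42% in the other, where 0 members met them. All 38 passed the filter on low values, had an estimate in both groups and lay inside their own bounds.

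**Figure D1:**
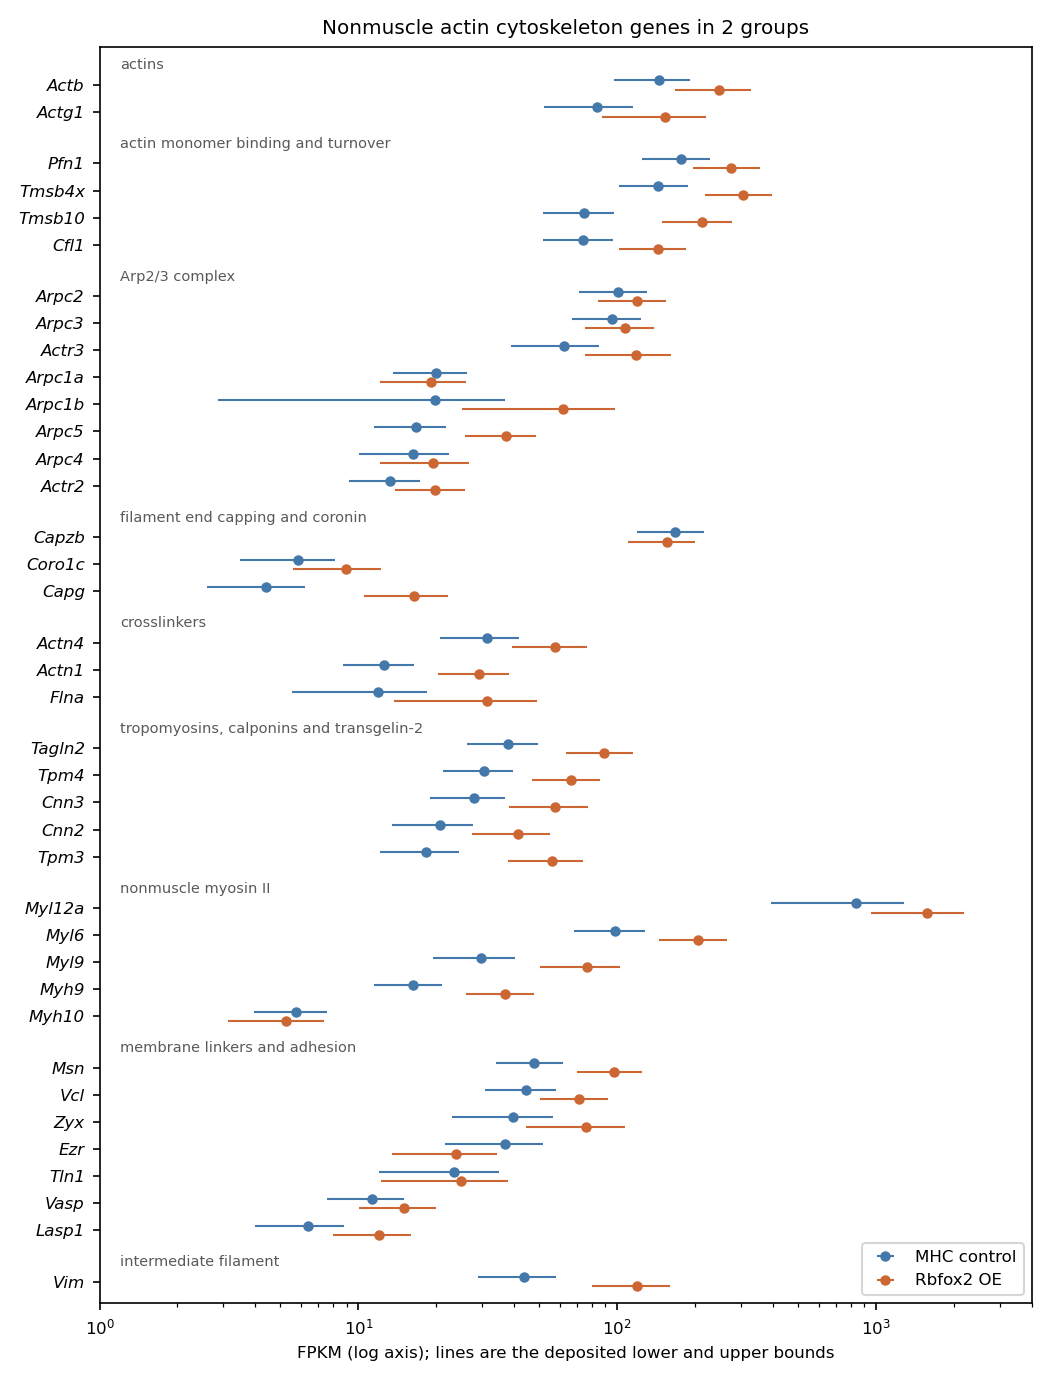
FPKM of each of the 38 genes (log axis) in MHC control and Rbfox2 OE, grouped by role, with points for the pooled values and lines for the deposited bounds. Myl12a has the highest value in both groups, at 839 and 1574 FPKM, but its locus is shared with other genes and the value is uncertain. Most Rbfox2 OE points lie to the right of the control points.

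The summed FPKM of the members was 2651 in MHC and 4787 in Rbfox2 OE, a share of 0.517% and 1.07% of all FPKM in the table. Myl12a alone held a large part of these sums. Without it the shares were 0.353% and 0.719%. The shares are of totals of 512908 FPKM in MHC and 446802 FPKM in Rbfox2 OE. These totals leave out genes with no estimate, 30 rows in MHC and 26 in Rbfox2 OE, and so do not cover the same genes. The members' own sums, Myl12a included, had a ratio of 1.81. The order of the members by level was much the same in both groups, with a Spearman rank correlation of 0.94 across the 38 genes, which share libraries and are not independent. The control level of a member was nearly unrelated to its log2 ratio (Spearman rank correlation of -0.12 across the same genes).

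Both cytoplasmic actin genes were higher in Rbfox2 OE, by less than 2-fold. Actb, which encodes beta-actin (ENSMUSG00000029580, GRCm38 chromosome 5, 142903115 to 142906754, minus strand), stood at 144 FPKM in MHC (97.3 to 191) and 247 FPKM in Rbfox2 OE (167 to 327). Actg1, which encodes gamma-actin, stood at 83.4 FPKM (52.0 to 115) and 153 FPKM (87.4 to 219). The log2 ratios were 0.77 and 0.87, and the bounds overlapped for both. Their coding sequences are closely similar, so fragments may be divided between them with error.

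Of the 4 genes for proteins that hold or release actin monomers, 2 were at least 2-fold higher and 3 had separate bounds. Over all genes compared the shares were 6.97% and 6.67%. Tmsb10, encoding thymosin beta-10, a monomer-binding peptide (chromosome 6, 72957347 to 72958748, minus strand), stood at 74.5 FPKM in MHC (51.6 to 97.5) and 213 FPKM in Rbfox2 OE (149 to 277). That is a ratio of 2.85 with bounds well apart. Its relative Tmsb4x, encoding thymosin beta-4, stood at 144 FPKM (101 to 187) and 306 FPKM (217 to 395), a ratio of 2.13. Tmsb4x moved from the fifth to the second most abundant member. Cfl1, encoding the severing protein cofilin-1, stood at 73.9 FPKM (51.8 to 96.0) and 143 FPKM (102 to 185). It was the 1 member with separate bounds and a log2 ratio under 1, at 0.94. Pfn1, encoding profilin-1, which hands monomers to growing ends, stood at 177 FPKM (125 to 229) and 276 FPKM (196 to 356), with overlapping bounds and a log2 ratio of 0.64.

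The Arp2/3 complex was uneven. Of its 8 genes, 2 were at least 2-fold higher and 1 had separate bounds, against 6.97% and 6.67% of all genes compared. The median log2 ratio was 0.40. Counts in groups of this size are a description. Arpc5 (chromosome 1, 152766542 to 152775597, plus strand) was the subunit that met both criteria, at 16.6 FPKM in MHC (11.5 to 21.8) and 37.2 FPKM in Rbfox2 OE (25.9 to 48.6). Arpc1b and Arpc1a encode alternative forms of 1 subunit and differed from each other. Arpc1b stood at 19.8 FPKM (2.88 to 36.7) and 61.8 FPKM (25.2 to 98.4), a log2 ratio of 1.59 with overlapping bounds. Arpc1a stood at 19.9 FPKM (13.6 to 26.3) and 19.0 FPKM (12.2 to 25.9). The 2 forms were level in MHC, while Arpc1b stood at 3.24 times Arpc1a in Rbfox2 OE. The range of that proportion from the bounds ran from 0.110 to 2.70 in MHC and from 0.971 to 8.10 in Rbfox2 OE, so the ranges overlap.

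The actin-related proteins that form the core of the complex, Actr3 and Actr2, had log2 ratios of 0.92 and 0.55 with overlapping bounds. Actr3 stood at 62.1 FPKM in MHC and 118 FPKM in Rbfox2 OE. Arpc2, Arpc3 and Arpc4 were close between the groups, with log2 ratios of 0.24, 0.16 and 0.25. Arpc2 and Arpc3 were the most abundant subunits in MHC, at 101 and 95.2 FPKM. The transcripts of a complex whose subunits are used together thus differed by amounts from -0.06 to 1.59 on the log2 scale, with wide bounds for the highest of them.

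Capping genes held the highest ratio among the members and also a gene that was close between the groups. Capg, which encodes a gelsolin-family protein named for its abundance in macrophages (chromosome 6, 72544391 to 72562983, plus strand), stood at 4.41 FPKM in MHC (2.59 to 6.23) and 16.3 FPKM in Rbfox2 OE (10.5 to 22.2). Its ratio of 3.70 was the highest of the 38, and it was the least abundant member in MHC. Capzb, the beta subunit of the capping protein that closes filament ends in every cell and at the Z-disc, stood at 167 FPKM (119 to 215) and 155 FPKM (110 to 200). The bounds of Capzb overlapped almost fully, and its log2 ratio of -0.11 changed sign when the groups were rescaled. Coro1c, encoding a coronin that acts on branched filaments, stood at 5.82 and 8.93 FPKM with overlapping bounds.

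All 3 crosslinkers were higher. Actn1, encoding the nonmuscle alpha-actinin of stress fibres (chromosome 12, 80167547 to 80260371, minus strand), stood at 12.6 FPKM in MHC (8.69 to 16.4) and 29.2 FPKM in Rbfox2 OE (20.3 to 38.1), with separate bounds and a ratio of 2.33. Actn4, its close relative, stood at 31.3 FPKM (20.7 to 41.8) and 57.6 FPKM (39.1 to 76.1), with bounds that overlap slightly. Flna, encoding filamin A, which joins filaments at right angles, stood at 11.9 FPKM (5.56 to 18.3) and 31.4 FPKM (13.8 to 49.1). Flna was thus 2.63 times higher, but with bounds wider than those of most members, which overlapped.

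Genes for the proteins that lie along the filament were all higher. Of the 5, 4 were at least 2-fold higher and the same 4 had separate bounds, against 6.97% and 6.67% of all genes compared. Their median log2 ratio was 1.10. Tpm3 (chromosome 3, 90072649 to 90100902, plus strand), a tropomyosin gene with nonmuscle and slow muscle transcripts, stood at 18.2 FPKM in MHC (12.1 to 24.4) and 55.9 FPKM in Rbfox2 OE (37.9 to 73.9), a ratio of 3.07. The value is for the whole gene and does not separate its transcripts. Tpm4, a tropomyosin gene expressed in nonmuscle cells, stood at 30.5 FPKM (21.3 to 39.7) and 66.4 FPKM (46.9 to 85.9). Tagln2, encoding transgelin-2, an actin-binding protein of nonmuscle cells, stood at 37.9 FPKM (26.3 to 49.4) and 89.3 FPKM (63.2 to 115).

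The 2 calponins of this group stood on either side of the criteria. Cnn3 stood at 27.9 FPKM in MHC (18.9 to 36.9) and 57.5 FPKM in Rbfox2 OE (38.1 to 77.0), a log2 ratio of 1.02. Cnn2 stood at 20.6 FPKM (13.5 to 27.6) and 41.3 FPKM (27.5 to 55.2), a log2 ratio of 0.97. Its ratio of plain FPKM was 2.01. Cnn3 is just inside and Cnn2 just outside both criteria, so the count of called members does not mark a gap between these genes.

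Nonmuscle myosin II is built of heavy chains and light chains, and its heavy chain genes differed from each other. Myh9, the heavy chain of myosin IIA (chromosome 15, 77760587 to 77842175, minus strand), stood at 16.3 FPKM in MHC (11.5 to 21.1) and 36.9 FPKM in Rbfox2 OE (26.0 to 47.7), a ratio of 2.27. Myh10, the heavy chain of myosin IIB, which is the form known from developing cardiomyocytes, stood at 5.75 FPKM (3.95 to 7.56) and 5.24 FPKM (3.13 to 7.36). The bounds were separate for Myh9 and overlapped almost fully for Myh10, whose log2 ratio of -0.11 changed sign when the groups were rescaled.

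The light chain genes were higher. Myl9, a regulatory light chain found in smooth muscle and nonmuscle cells (chromosome 2, 156775420 to 156781658, plus strand), stood at 29.9 FPKM in MHC (19.5 to 40.2) and 76.1 FPKM in Rbfox2 OE (50.1 to 102). Myl6, the essential light chain, stood at 98.1 FPKM (68.3 to 128) and 206 FPKM (145 to 266). Both had separate bounds and log2 ratios of 1.32 and 1.06. Myl12a, a further regulatory light chain, had the highest level of all members, at 839 FPKM (391 to 1287) and 1574 FPKM (958 to 2191). Its bounds overlapped. Its value is uncertain, since the table gives its locus to 15 genes, among them the near-identical Myl12b at 40.9 and 71.3 FPKM. Myl12a also overlaps the annotated gene Myom1, and the use of strand in counting is not given in the sources used here.

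Of the 7 membrane linker and adhesion genes, 1 met both criteria, against 5.27% of all genes compared, and the median log2 ratio was 0.66. Msn, encoding moesin, which links filaments to the membrane and is abundant in leukocytes and endothelium (chromosome X, 96096042 to 96168552, plus strand), stood at 47.8 FPKM in MHC (33.9 to 61.7) and 97.2 FPKM in Rbfox2 OE (69.7 to 125). Its relative Ezr, encoding ezrin, typical of epithelia, stood at 36.7 FPKM (21.6 to 51.9) and 23.9 FPKM (13.5 to 34.3), with overlapping bounds. Ezr had the lowest log2 ratio of the 38, at -0.60, and Msn and Ezr, close in MHC, were far apart in Rbfox2 OE. Ezr overlaps the gene Sytl3 on the opposite strand, and whether strand was used in counting is not given in the sources used here.

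The adhesion genes had overlapping bounds. Zyx, encoding the stress fibre protein zyxin, stood at 39.7 FPKM in MHC (23.1 to 56.2) and 75.6 FPKM in Rbfox2 OE (44.3 to 107). Vcl, encoding vinculin, a component of costameres and intercalated discs, stood at 44.5 FPKM (30.8 to 58.2) and 71.2 FPKM (50.5 to 91.9). Tln1, encoding talin-1, which couples integrins to actin, stood at 23.4 and 25.0 FPKM, a log2 ratio of 0.09. Among these, the value of Tln1 was the closest between the groups. Lasp1, an adaptor of the nebulin family, and Vasp, which promotes filament growth, had log2 ratios of 0.82 and 0.38.

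Vim, encoding vimentin, the intermediate filament of mesenchymal, endothelial and blood cells (chromosome 2, 13573927 to 13582826, plus strand), stood at 43.5 FPKM in MHC (29.1 to 57.9) and 120 FPKM in Rbfox2 OE (79.9 to 159). Its ratio was 2.75 with separate bounds. Vimentin is not typical of adult cardiomyocytes, whose intermediate filament is desmin.

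**Figure D2:**
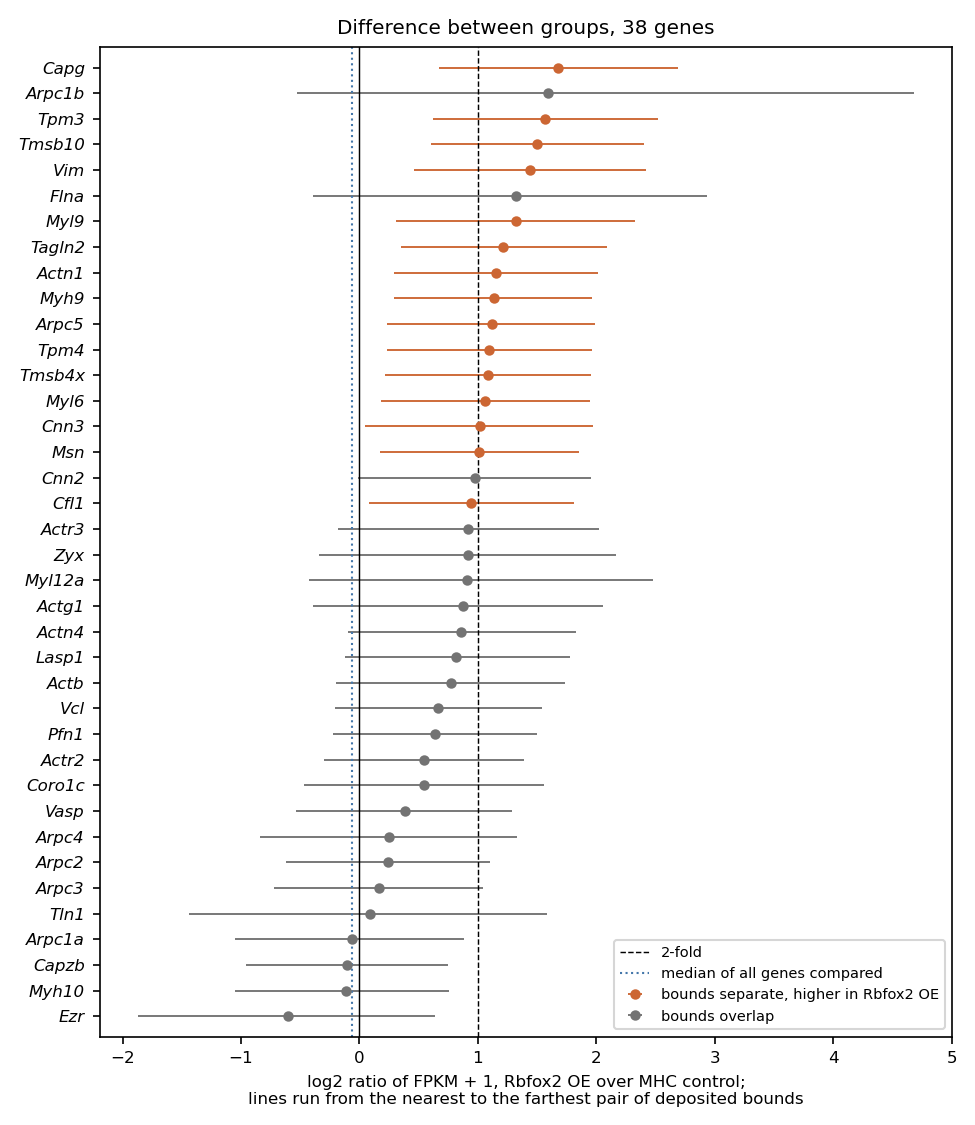
Log2 ratio of FPKM + 1, Rbfox2 OE over MHC control, for the 38 genes in order of size. Lines run from the nearest to the farthest pair of bounds, orange marks the 15 genes with separate bounds, the dashed line is 2-fold and the dotted line the median of all genes compared, at -0.06.

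The plot of ratios shows a continuous spread from Ezr at -0.60 to Capg at 1.68, with 15 of the genes from Actb at 0.77 to Arpc5 at 1.12. The 6 members with a CArG box in the promoter window had a median log2 ratio of 0.92 and ran from 0.25 to 1.32. The 31 members without one had the same median, 0.92, and ran from -0.60 to 1.68. Actb is in neither set. A window without a match does not show that a gene lacks an SRF site, so nothing about SRF is drawn from this split. Srf itself stood at 39.7 FPKM in MHC (18.4 to 61.0) and 32.0 FPKM in Rbfox2 OE (13.5 to 50.4). Its value is uncertain, since the table gives its locus to 21 genes. Of the coactivators of SRF, Myocd, Mkl1 and Mkl2 had overlapping bounds, with log2 ratios of -0.03, 0.43 and 0.73.

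Of 13 muscle relatives with an estimate, 2 were at least 2-fold higher (Acta1 and Tpm2) and 3 were 2-fold lower (Actc1, Tln2 and Nebl). Over all genes compared the shares were 6.97% and 10%. The median log2 ratio of the muscle relatives was -0.45. Members were set against such relatives in 13 pairs, which leave out Acta1 and Tpm2, the relatives that were higher, and the light chains Myl2 and Myl3. The proportion of 2 genes within a group does not depend on how the groups are scaled. In these 13 pairs the nonmuscle gene was higher relative to its muscle relative in Rbfox2 OE, by 1.44 to 6.36 times with a median of 3.58. The ranges that the bounds of both genes allow were separate in 4 pairs. With the 7 other pairs that these relatives allow, added after the values were seen, the proportion was higher in 18 of 20 pairs. It was lower in 2, and the median was 2.61 times. The pairs are not independent, since Actc1, Actn2, Tpm1, Myh7, Acta1, Tpm2 and Myl2 are each used repeatedly. Actb stood at 2.10% of Actc1, the cardiac actin gene, in MHC and at 8.20% in Rbfox2 OE, where Actc1 itself was lower, at 3013 FPKM (2190.4 to 3836) against 6867 FPKM (4990.1 to 8745). Actn1 stood at 1.51% of Actn2, the Z-disc alpha-actinin, in MHC and at 6.42% in Rbfox2 OE. Tpm3 stood at 0.247% and 0.906% of Tpm1. Those ranges, and those of Myh9 over Myh7, were separate. The table gives the loci of Actc1 and Myh7 to 5 genes each, so fragments may be misassigned there too. Myh6, the other heavy chain gene among the muscle relatives, had no estimate. Actn4 over Actn2 and Actg1 over Actc1 fell just short, with ranges of the proportion that overlapped from 0.0675 to 0.0687 and from 0.0228 to 0.0230.

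The pairs differed in which side moved. Vim over Des, the desmin gene, went from 6.12% to 14.1% while Des was close between the groups, at 711 and 848 FPKM. Tln1 over Tln2 went from 1.90 to 4.87 times, where Tln1 was close between the groups and Tln2 was lower, at 5.14 FPKM (3.52 to 6.75) against 12.3 FPKM (8.72 to 15.9). Lasp1 over Nebl, which encodes the cardiac nebulin relative nebulette, changed most, from 4.56% to 29.0%. Nebl went from 140 to 41.4 FPKM with overlapping bounds. Cfl1 over Cfl2, the muscle cofilin, went from 0.949 to 1.54 times, and Myh10 over Myh7 from 5.32% to 7.65%, both with overlapping ranges.

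The proportion was lower in Rbfox2 OE in the pairs with Acta1, the skeletal actin gene, which stood at 137 FPKM (0 to 293) and 1400 FPKM (818 to 1982). Actb went from 105% to 17.6% of Acta1, and Actg1 from 60.8% to 10.96%. The value of Acta1 is uncertain, since the table places 189 genes in its locus. Tpm4 over Tpm2, a tropomyosin gene of muscle, was nearly level, going from 144% to 150.5%, and Tpm3 over Tpm2 went from 0.865 to 1.27 times. The light chain pairs, Myl9 and Myl12a over Myl2 and Myl6 over Myl3, were higher by 3.49, 2.57 and 2.62 times. The ranges overlapped in each of the 7 added pairs.

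**Figure D3:**
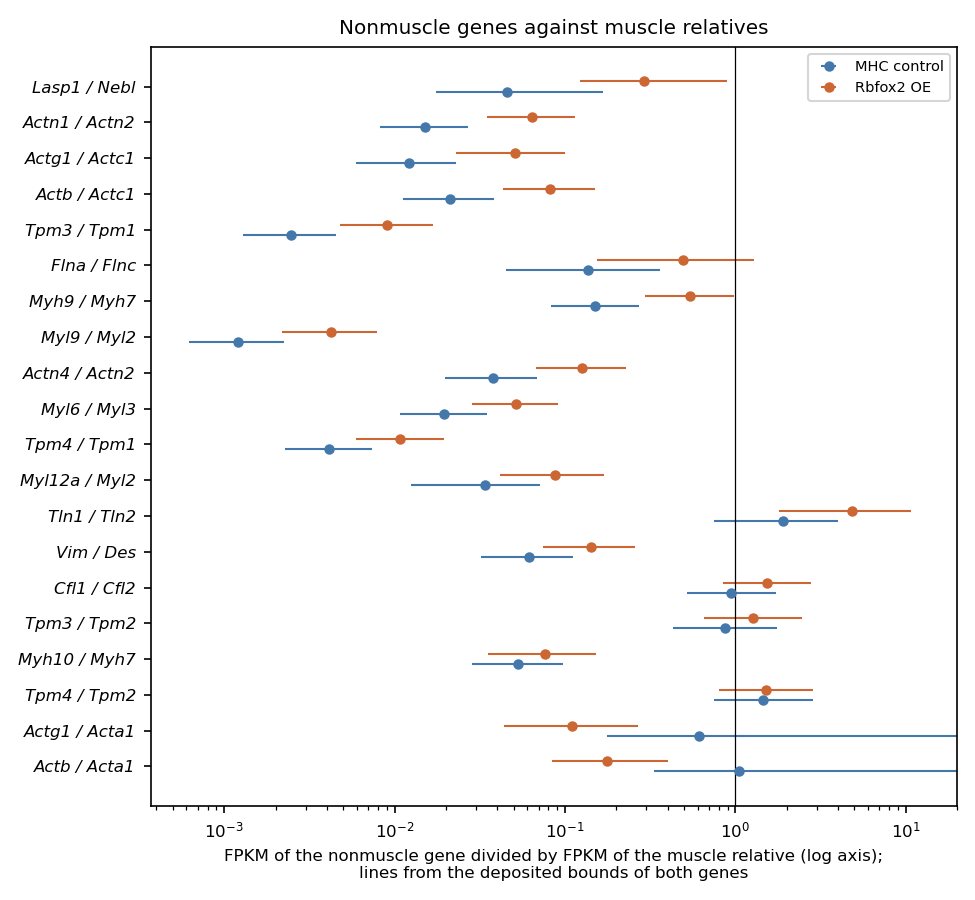
FPKM of a nonmuscle gene divided by FPKM of its muscle relative (log axis) in MHC control and Rbfox2 OE for 20 pairs, with lines for the range that the deposited bounds of both genes allow, cut at the axis end where a lower bound of 0 leaves the range open. The Rbfox2 OE point is to the right in 18 pairs and to the left in the 2 with Acta1, and the ranges are separate for 4 of the 20.

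The other genes of actin regulation were taken from lists, and those among them outside the rule for named genes were named after their values were seen. Among 30 further genes of actin dynamics and crosslinking that passed the filter, 5 were at least 2-fold higher and 2 were 2-fold lower. Over all genes compared these shares were 6.97% and 10%. Of the 30 genes, 7 had separate bounds in the higher and 4 in the lower direction, against 6.67% and 9.33%. Their median log2 ratio was 0.45. The higher genes were Lcp1, Coro1a, Hcls1, Marcksl1 and Pls3, and the lower ones Actr3b and Svil, joined by Cap2 and Tmod1 on bounds alone. Lcp1, the plastin of leukocytes, stood at 4.61 FPKM in MHC and 19.8 FPKM in Rbfox2 OE. Coro1a, the coronin of leukocytes, stood at 1.78 and 8.63 FPKM. Actr3b, a second gene for the Arp3 subunit, was lower, at 16.7 FPKM in MHC (11.4 to 22.0) and 2.70 FPKM in Rbfox2 OE (1.31 to 4.09). Its relative among the members, Actr3, met neither criterion, with a log2 ratio of 0.92.

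Among 22 nucleation promoters, formins and Ena/VASP genes, 4 were 2-fold higher (Fmnl2, Abi1, Nckap1l and Was) and 2 were 2-fold lower (Fhod3 and Daam1). These counts stand against 6.97% and 10% of all genes compared, and the median of the list was 0.29. The bounds of Abi1 overlapped, at 8.52 FPKM in MHC (3.69 to 13.4) and 23.5 FPKM in Rbfox2 OE (10.1 to 36.9). Fhod3, the formin of the cardiac sarcomere, stood at 99.9 FPKM in MHC (71.7 to 128) and 11.9 FPKM in Rbfox2 OE (7.78 to 15.9). Daam1, another formin, stood at 20.9 and 4.57 FPKM, and Fmnl2, a formin of the cell edge, at 2.43 and 12.3 FPKM. All 3 had separate bounds. The formin genes Diaph1, Diaph2, Daam2, Fmnl1, Fmnl3 and Fhod1 had overlapping bounds and were under 2-fold. Of 10 focal adhesion partners, 1 was 2-fold higher, the blood cell gene Fermt3, with overlapping bounds. The adaptor Lims1 was the 1 gene 2-fold lower, at 36.5 and 13.0 FPKM. These counts stand against 6.97% and 10% of all genes compared, and the median of the partners was -0.05. The median was below that of the 38 members in each of these lists.

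Most markers of other cells were higher in Rbfox2 OE, by amounts that differed between markers. The counts of markers that follow stand against 6.97% of all genes compared at 2-fold higher and 10% at 2-fold lower. Separate bounds in the higher direction were found for 6.67% of all genes compared. Of 12 macrophage and leukocyte markers, 11 were at least 2-fold higher and 11 had separate bounds. Their summed level was 142 FPKM in MHC and 514 FPKM in Rbfox2 OE, and their median log2 ratio was 1.72. Of 10 fibroblast markers, 7 were 2-fold higher, their sums were 224 and 534 FPKM, and the median was 1.22. Of 10 endothelial markers, 3 were 2-fold higher (Emcn, Vwf and Esam), their sums were 279 and 502 FPKM, and the median was 0.86. Log2 ratios ran from 0.36 to 2.13 over the fibroblast markers and from 0.03 to 1.30 over the endothelial markers. The members' median of 0.92 lies between the medians of endothelial and fibroblast markers.

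Smooth muscle and pericyte markers had a median of 0.81, with 2 of 9 higher at 2-fold (Acta2 and Tagln) and 1 lower (Abcc9). Their sums were 205 and 344 FPKM. Their log2 ratios ran from -1.79 (Abcc9) to 1.65 (Acta2), and the bounds of Tagln overlapped. Epicardial and mesothelial markers had a median of 0.97, with 2 of 5 higher (Upk3b and Msln) and sums of 12.1 and 28.6 FPKM. Red blood cell markers had a median of 2.28, with 4 of the 5 that passed the filter higher (Hba-a1, Hba-a2, Hbb-bs and Hbb-bt) and sums of 56.6 and 295 FPKM. The 4 glial markers were under 1 FPKM. No marker of these lists was at 0 in both groups, and Slc4a1, a red blood cell gene, was listed at 0 in MHC. Of 10 cardiomyocyte markers, 0 were 2-fold higher and 3 were 2-fold lower (Pln, Ryr2 and Tnni3), and Ttn, the titin gene, was the 1 with a log2 ratio above 0, at 0.60 with overlapping bounds. They had a median of -0.78 and sums of 57601 and 37304 FPKM. The part of other cells in the members' values was not tested. In bulk RNA of this kind, fewer cells of a type and less RNA per cell cannot be told apart.

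**Figure D4:**
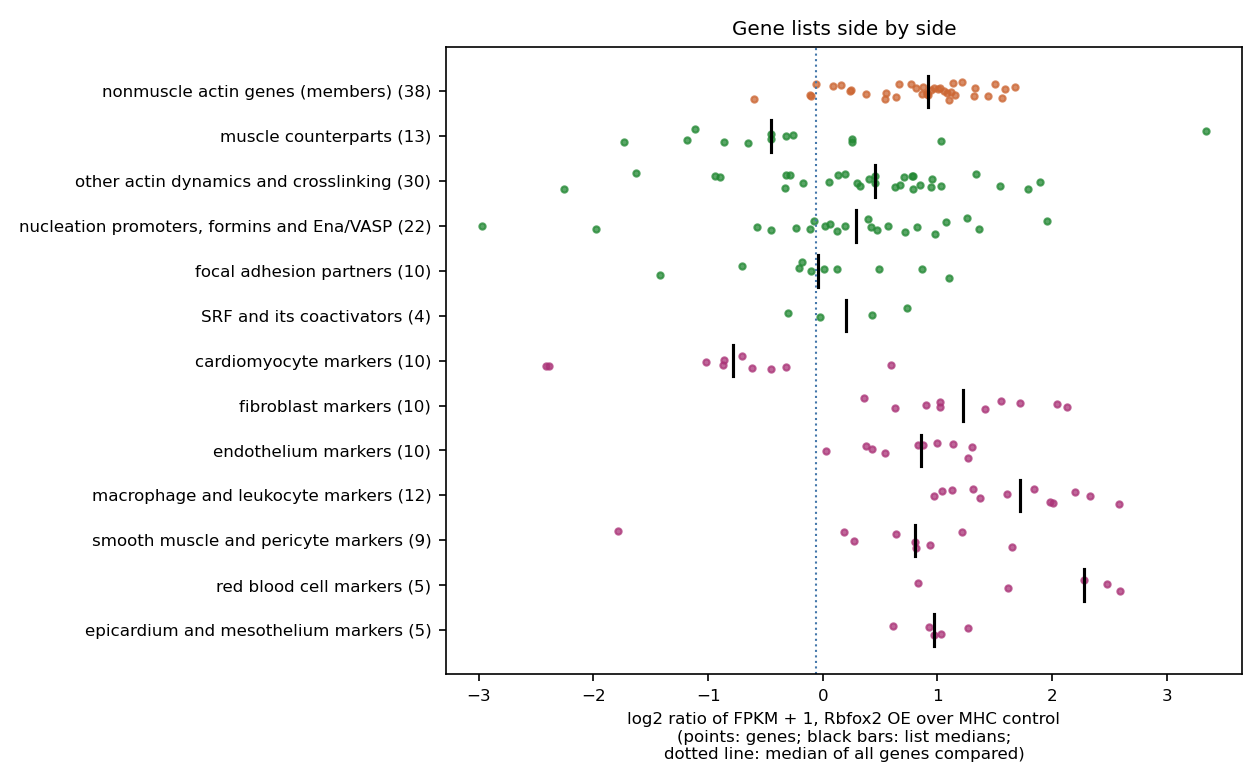
Log2 ratios of the 38 genes beside those of other actin pathway lists and of cell type markers, with points for genes, black bars for list medians and the number of genes in brackets. The bar of the 38 genes, at 0.92, is near those of endothelial (0.86) and epicardial (0.97) markers and on the other side of 0 from the muscle counterparts (-0.45).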

How the data were processed

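The 4 libraries (2 MHC, 2 Rbfox2 OE) were polyA-selected and prepared with a stranded TruSeq kit, per the labels' protocols. Cuffdiff gave the deposited FPKM, per the file headers, as 1 pooled value and 2 bounds in each group. The submitters' processing notes name Cuffdiff 2.2.1, STAR 2.4.2a and the build GRCm38. The level of the bounds, the annotation and the use of strand are not given in the sources used here. Genes with too many fragments (HIDATA) are listed at 0.

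The planned limma fit needs values per library, so the planned description was used: log2 ratios with a pseudocount of 1 FPKM, a 2-fold threshold and separate bounds, over 11697 genes whose mean reached 1 FPKM. Repeated gene names (110) were summed. Of the members, 17 share their locus in the table with other genes and 15 overlap an annotated gene on the opposite strand (GENCODE M21), so fragments may be misassigned. Members and lists were chosen with earlier results of these data known. Outside the members, genes were named as the 3 largest log2 ratios per list with separate bounds and the muscle relatives. The SRF genes and others behind small counts, such as Tagln and Hbb-bt, were named after their values were seen. Scripts (Python 3.11.15, pandas 2.3.3) were tested on simulated data. Alternatives covered pseudocount, filter, threshold, scaling, status, repeated names and shared loci. One pathway list is not reported here.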

Additional observations from a re-analysis of the deposited data

How the results depend on the processing

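No paired analysis was possible because the deposited values are pooled over the libraries of a group, and for the same reason no library could be left out. This limits every result above, as does the unknown depth. The number of members at least 2-fold higher, 16, was 27 with a 1.5-fold threshold, and 2 with a 3-fold threshold, against 16.6% and 2.53% of all genes compared. These thresholds are on FPKM + 1, so Tpm3, with a ratio of plain FPKM of 3.07, fell short at 3-fold. At 1.5-fold 1 member (Ezr) was lower, against 22.1% of all genes. The number was 11 with a pseudocount of 5 (2.60% of all genes), 11 of the 21 members in loci of 1 gene (7.83%), and 23 on scaling the groups to sums that leave out mitochondrial and top genes, against 9.08% of all genes. The number with separate bounds was 15, against 6.67% of all genes compared. It was 11 of the 21 members in loci of 1 gene, against 9.15%. With the rescaling it was 18, against 8.74%. Rescaling moved the median of all genes from -0.06 to 0.07 and that of the members to 1.07, which is 1.0 above all genes, and turned the signs of Arpc1a, Capzb and Myh10. It moved the role medians to 0.98 for actins, 1.17 for monomer binding, 0.55 for Arp2/3, 0.68 for capping, 1.31 for crosslinkers, 1.25 for tropomyosins and calponins, 1.22 for myosin, 0.82 for linkers and 1.60 for vimentin. With loci of 1 gene the members' median was 1.06, and those of Arp2/3, capping, tropomyosins and linkers were 0.73, 0.79, 1.22 and 0.82, over fewer genes. A pseudocount of 5 gave 0.36 for capping and 0.96 for crosslinkers. With 20 muscle pairs in place of 13, chosen after seeing the data, the median change of the proportion was 2.61 in place of 3.58 times. The mean over members in place of the median was 0.81. The 325 recomputed log2 ratios of single members each moved by less than the range of their bounds. Those under the filter, status, repeated-name and shared-locus settings could not move, since these leave a member's own value as it was. The bounds are also wide, so no weight rests on this. Beyond fewer genes and the shrinkage of low values by a pseudocount, the cause was not tested.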

Other observations

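Several actin regulators exist as a form found mainly or most strongly in blood cells and a form found broadly. The values of 9 such pairs are given as a description. The pairs were chosen after values were seen, so no weight rests on the direction they share, and the first form relative to the second differed by 2.04 to 6.06 times. Nckap1l, the blood cell form of a WAVE complex subunit, stood at 4.40% of Nckap1 in MHC and 26.7% in Rbfox2 OE. Rac2 stood at 0.713% and 3.16% of Rac1, Coro1a at 11.1% and 38.5% of Coro1b, and Was at 5.96% and 21.4% of Wasl. Lcp1 stood at 29.7% and 60.6% of Pls3, the smallest change of the 9. The ranges that the bounds allow were separate for Nckap1l alone. The first form was the less abundant of each pair in both groups, except in the pair of Arpc1b and Arpc1a. Arpc1b was level with Arpc1a in MHC, at 19.8 and 19.9 FPKM, and above it in Rbfox2 OE.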
